A study of Homo sapiens with 6 samples.

Results

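The genes for the subunits of chorionic gonadotropin were examined in HK-2 cells, a permanent cell line grown from the epithelium of the human proximal tubule. They were compared between control cells and cells given TGF-β1, a cytokine that drives fibrosis. The set held 10 of the 41497 named entries of the tables. It comprised the beta subunit genes CGB1, CGB2, CGB3, CGB5, CGB7 and CGB8, their close relative LHB, the shared alpha subunit gene CGA, and NTF4 and KCNA7, which lie beside the beta cluster. The set was selected because genes of the cluster were high after TGF-β1 in these same libraries. The differences of its members between the groups are therefore given as descriptions, with no p-value.

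Chorionic gonadotropin is the hormone that the syncytiotrophoblast of the placenta secretes to maintain early pregnancy. It is a dimer of an alpha subunit, which luteinizing hormone, follicle-stimulating hormone and thyrotropin share, and a beta subunit, which gives the hormone its receptor specificity. Neither subunit alone activates the receptor, so a dimer needs CGA as well as a beta gene. The beta genes arose by duplication of LHB and lie together on chromosome 19. Free beta subunit without the alpha chain is known from many epithelial tumours outside the placenta. Kidney tubular cells are not a normal site of hormone production.

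There were 3 control and 3 TGF-β1 libraries of wild-type HK-2 cells, all collected at 24 h. The study used them to search for genes that respond to TGF-β in tubular cells. HK-2 is a single line, made permanent with papillomavirus genes. The labels give serum-containing medium for maintenance, the methods describe TGF-β treatment without serum, and the medium of the control is not stated. Nothing in the labels says that replicates came from separate cultures, so their spread may be technical.

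Libraries held 21.9 to 26.9 M counts (M, megacounts). Of 8 genes known to respond to TGF-β, 7 were called higher at an edgeR adjusted p under 0.05, as were 22.2% of all genes tested, and TGFB1I1 was not. Of 12 proximal tubule markers, 8 passed the filter, with 4 called higher and 3 lower, beside 22.2% and 22.1% of all genes. PAX8 and GGT1 had log2 fold changes of -0.735 and -0.58, and PAX2 was also lower. AQP1, KRT8 and KRT18 had 2.105, 0.647 and 0.583, and CUBN was also higher. The calls of CUBN and PAX2 were lost in some alternatives. ANPEP had 3 reads in each group, SLC34A1 had 14 in control and 3 after TGF-β1, and LRP2 and SLC22A6 had no read in any library. The summed level of the 8 markers of leukocytes, endothelium and fibroblasts was 60.4 to 69.6 counts per megacount (CPM) in control and 56.7 to 57.8 CPM after TGF-β1, most of it from LUM. Single markers of this list moved apart. PDGFRB, a mesenchymal receptor, rose from 10, 15 and 14 reads to 149, 151 and 113 (edgeR adjusted p = 1.07e-07), and CDH5, an endothelial cadherin, fell from 29, 16 and 17 reads to 0 in all TGF-β1 libraries (edgeR adjusted p = 0.000166). Their part in the later results was not tested. PTPRC, ACTA2 and DCN, which mark leukocytes, myofibroblasts and fibroblasts, were under the filter. So were PECAM1 and VWF, the other endothelial markers listed. PECAM1 had 5, 4 and 5 reads in control and VWF 2, 1 and 1, and both had 0 in all TGF-β1 libraries, as CDH5 had. TGF-β1 replicate 1 stood apart from the other TGF-β1 libraries. The chi-square per degree of freedom was 18.4 and 17.0 for its pairs with replicates 2 and 3, against 4.29 between those replicates and 4.27 to 5.94 between controls. Member values are given with and without it where it mattered.

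The sequences just upstream of the annotated start sites separate the beta genes into kinds. RefSeq (GRCh38.p14) gives all 10 members a promoter entry, of which the 250 bases before the start were used. For LHB this start is that of a later release than the tables. CGB5, CGB8 and CGB3 are shown together because they are near copies of each other, and capitals in CGB8 and CGB3 mark bases that differ from CGB5 where the windows overlap in the alignment. The sequences are written 5′ to 3′ on the strand of the gene.
CGB5 (chr19:49043598-49043847, plus strand): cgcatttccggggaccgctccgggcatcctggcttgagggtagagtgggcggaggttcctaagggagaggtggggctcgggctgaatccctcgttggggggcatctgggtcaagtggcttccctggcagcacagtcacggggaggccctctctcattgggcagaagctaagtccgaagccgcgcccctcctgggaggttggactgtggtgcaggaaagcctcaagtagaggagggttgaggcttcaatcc
CGB8 (chr19:49049112-49049361, minus strand): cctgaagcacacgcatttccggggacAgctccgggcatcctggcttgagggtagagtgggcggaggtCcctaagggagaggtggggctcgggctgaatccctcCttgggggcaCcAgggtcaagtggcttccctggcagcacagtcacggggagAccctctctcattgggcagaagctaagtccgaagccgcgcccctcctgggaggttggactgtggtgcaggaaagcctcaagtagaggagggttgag
CGB3 (chr19:49024334-49024583, minus strand): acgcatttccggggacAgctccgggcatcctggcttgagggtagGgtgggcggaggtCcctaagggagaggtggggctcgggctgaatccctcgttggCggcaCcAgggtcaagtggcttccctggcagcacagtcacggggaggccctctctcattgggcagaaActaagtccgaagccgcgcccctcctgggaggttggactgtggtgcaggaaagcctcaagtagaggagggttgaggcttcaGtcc

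CGB7, CGB1 and CGA are shown for contrast. CGB7 had no such likeness to CGB5 before its annotated start, and its capitals mark 2 GC boxes (GGGCGG). CGB7 is listed at 2.151 kb and CGB5 at 0.877 kb, so their windows may not be matching positions of the 2 genes. In CGB1 and CGA the capitals mark the cAMP response element (TGACGTCA), through which the alpha gene is known to respond to cAMP in trophoblast.
CGB7 (chr19:49057750-49057999, minus strand): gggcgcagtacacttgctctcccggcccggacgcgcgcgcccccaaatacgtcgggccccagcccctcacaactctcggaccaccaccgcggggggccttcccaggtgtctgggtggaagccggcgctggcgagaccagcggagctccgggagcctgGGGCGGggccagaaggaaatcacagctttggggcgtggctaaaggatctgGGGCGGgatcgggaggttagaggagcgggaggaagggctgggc
CGB1 (chr19:49036896-49037145, minus strand): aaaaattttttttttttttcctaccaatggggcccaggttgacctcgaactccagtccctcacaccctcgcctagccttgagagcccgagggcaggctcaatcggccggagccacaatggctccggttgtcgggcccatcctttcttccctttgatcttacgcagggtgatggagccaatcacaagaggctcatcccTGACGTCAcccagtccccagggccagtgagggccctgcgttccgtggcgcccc
CGA (chr6:87095107-87095356, minus strand): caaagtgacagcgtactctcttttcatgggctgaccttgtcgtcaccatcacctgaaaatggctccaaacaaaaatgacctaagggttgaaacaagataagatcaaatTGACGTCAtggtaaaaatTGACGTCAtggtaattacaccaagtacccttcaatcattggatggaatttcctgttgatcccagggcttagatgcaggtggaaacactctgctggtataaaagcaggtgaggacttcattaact

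Where the windows overlapped in the alignment, gaps counted as mismatches, 241 of 250 positions matched between CGB3 and CGB5 (96.4%), 233 of 240 between CGB5 and CGB8 (97.1%) and 191 of 229 between CGB1 and CGB2 (83.4%). Both strands were searched for 8 short motifs. TGACGTCA occurred at 2 places upstream of CGA, at 1 upstream of CGB1 and of CGB2, and in 1.63% of 34943 promoters. The ETS-type motif CCGGAA was found upstream of CGB3, CGB5, CGB8 and NTF4 and in 14.5% of all promoters. GGGCGG occurred upstream of 7 members and in 42.5% of all promoters. GCCNNNGGC, bound by AP-2, and CAGAC, a SMAD half-site, were each found upstream of CGB7 alone among the members, against 19.7% and 38.0% of all promoters. TGANTCA and GTCTAGAC were found upstream of none, and TATAAA upstream of CGA alone. A match is a run of letters, not a shown binding site.

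The coding sequences were closer still. By GENCODE transcripts, CGB5 and CGB8 were identical over all 495 coding bases, and CGB3 differed from each by 1 base. CGB7 matched CGB5 at 490 bases, whereas LHB matched CGB5 at 389 of its 423. Of all 150-base windows of the transcripts, the read length given by the study's methods, 63.7% in CGB5, 52.3% in CGB8 and 52.7% in CGB3 also occurred in another member. The share was 34.3% in CGB2, 37.0% in CGB1 and 6.9% in CGB7. LHB, NTF4, KCNA7 and CGA shared no such window with another member. How reads that match several genes were counted is not given in the sources used here. In number, CGB7 shared 229 of 3323 windows, CGB2 287 of 837 and CGB1 293 of 792. The split of reads among CGB5, CGB8, CGB3, CGB1, CGB2 and CGB7 is therefore uncertain, and their sum is reported as well.

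CGB8 and CGB5 were the most abundant members after TGF-β1 and were nearly silent in control. Both encode the beta chain that the placenta makes most of. CGB8 had 8, 9 and 6 reads in the control libraries and 1618, 1210 and 929 after TGF-β1. CGB5 had 1, 1 and 0 reads in control and 1413, 1003 and 803 after TGF-β1. All TGF-β1 libraries lay far above all controls for both genes, and within TGF-β1 replicate 1 was the highest and replicate 3 the lowest. Scaled by library size, CGB8 was 0.326 ± 0.0613 CPM in control and 52.2 ± 9.08 CPM after TGF-β1 (SD, n = 3), a fitted log2 fold change of 7.30 ± 0.20 (SE). CGB5 reached 44.7 ± 8.44 CPM. Since its controls had 2 reads in all, its change is best read as the ratio of reads per library total, 1480 with an exact 95% interval from 409 to 12230, which covers counting error only. Its fitted log2 value was 10.38 ± 0.32 (SE), and it fell to 8.63 with a prior count of 2. In these bulk libraries, more expressing cells and more RNA per cell cannot be told apart. Without TGF-β1 replicate 1 the values were 7.14 for CGB8 and 10.20 for CGB5.

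CGB3, CGB1 and CGB2 were lower in abundance. CGB3, also a source of placental beta subunit, had 0, 0 and 1 reads in control and 118, 128 and 77 after TGF-β1. CGB1 and CGB2 have been described as atypical copies with a different first exon, whose predicted protein differs from the hormone chain. In the GENCODE entries used here, however, CGB1 matched CGB3 at 459 of its 465 coding bases. CGB2 matched CGB3 at 484 of its 489. CGB1 had 3, 0 and 1 reads in control and 56, 33 and 26 after TGF-β1. CGB2 had 0, 1 and 0 reads in control and 19, 17 and 15 after TGF-β1. The groups did not overlap for any of the 3 genes, and each was at or near 0 in control. The read ratio was 297 (exact 95% interval 52.9 to 11770) for CGB3, 46.9 (8.05 to 1889) for CGB2 and 26.4 (10.05 to 98.7) for CGB1. Single control libraries with the few reads set these folds. The fitted log2 fold change of CGB3 was 7.86 and became 9.74 without control replicate 3, that of CGB2 was 5.21 and became 7.08 without control replicate 2, and that of CGB1 was 4.69 and became 5.94 without control replicate 1.

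CGB7 was the beta gene with the most reads in control. It is a full-length beta gene whose protein differs slightly from that of CGB5. Its reads numbered 25, 35 and 32 in control, against 524, 677 and 460 after TGF-β1, and the TGF-β1 libraries were all above the controls. In CPM it went from 1.30 ± 0.170 to 23.4 ± 4.12 (SD, n = 3), with a fitted log2 fold change of 4.16 ± 0.16 (SE). Its order among the TGF-β1 libraries was not that of CGB5 and CGB8, since replicate 1 was the lowest for CGB7 and the highest for those genes.

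**Figure D1:**
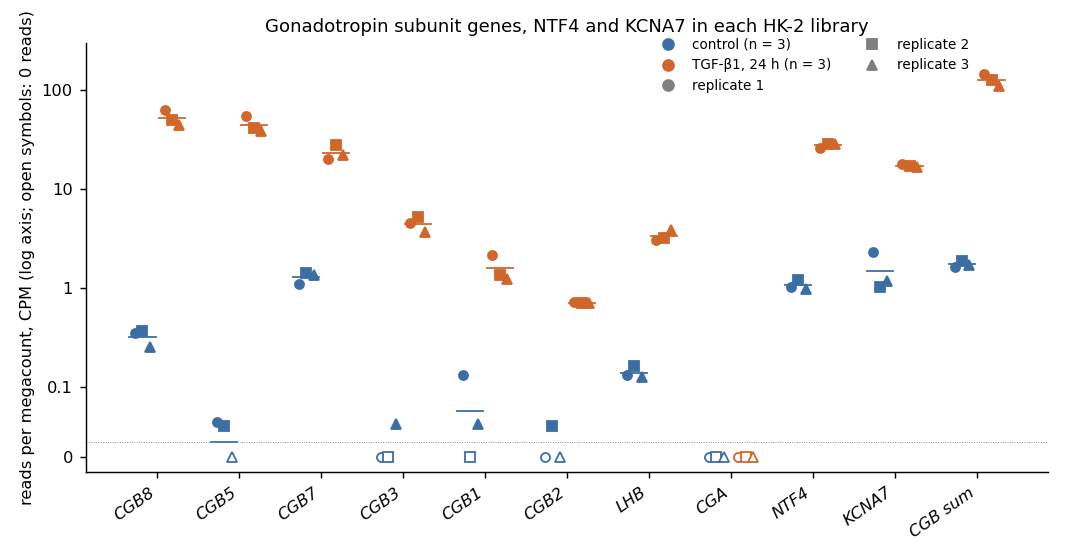
Reads per megacount (CPM) in each library for the 10 genes and for the sum of the 6 CGB genes, on a log axis, with 3 control (blue) and 3 TGF-β1 (orange) libraries; horizontal bars are means and open symbols at the bottom are libraries with 0 reads. The TGF-β1 libraries lie above the controls for every gene but CGA, which had no read in any library, and the CGB sum lies between 110.3 and 144 CPM after TGF-β1.

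Summed over the 6 CGB genes, so that the split of reads among them matters less, there were 37, 46 and 40 reads in control and 3748, 3068 and 2310 after TGF-β1. The 2 groups did not overlap. The sum was 1.74 ± 0.125 CPM in control and 127 ± 16.8 CPM after TGF-β1 (SD, n = 3), which is a fitted log2 fold change of 6.18 ± 0.13 (SE). Without TGF-β1 replicate 1 it was 6.07. Of the 10 members, 9 passed the count filter, and all 9 had every TGF-β1 library above every control, as had 27.9% of the 14860 genes tested. Nothing is read from this count, because the set was selected on this contrast. For 6 of the 9 (LHB, CGB3, CGB2, CGB1, CGB5 and CGB8), every control library had under 10 reads, so they could pass the filter only by being high after TGF-β1. CGA did not pass.

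CGB7 gave most of the few CGB reads in control, and CGB8 and CGB5 most of those after TGF-β1. In the pooled controls CGB7 gave 74.8% of the 123 CGB reads (exact 95% interval 66.2 to 82.2), CGB8 18.7% (12.2 to 26.7) and CGB5 1.63% (0.198 to 5.75). After TGF-β1, CGB8 gave 40.9% ± 1.97, CGB5 35.05% ± 2.52 and CGB7 18.7% ± 4.19 (SD, n = 3). CGB3 added 3.55% ± 0.546, CGB1 1.23% ± 0.229 and CGB2 0.570% ± 0.0726. Counted per kilobase of gene length, the share of CGB5 was 39.6%. The ratio of CGB5 to CGB8 in FPKM, fragments per kilobase of gene length and megacount of library, was 0.883, 0.838 and 0.874 in TGF-β1 replicates 1, 2 and 3 and varied 1.05-fold. The ratio of CGB7 to CGB8 was 0.134, 0.231 and 0.204 and varied 1.73-fold. The first ratio varied less, but CGB5 and CGB8 share windows, whereas 6.9% of the windows of CGB7 occur in another member. The steadiness of the 2 ratios can therefore not be compared. CGB7 is listed at 2.151 kb and CGB8 at 0.887 kb, so shares of reads favour CGB7. Per length in control, CGB7 had 0.625 FPKM and CGB8 0.3795, beside 1.138 for the CGB sum.

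Per length, the order of levels after TGF-β1 was CGB8 at 56.5 ± 10.3 FPKM, CGB5 at 48.9 ± 9.63, NTF4 at 10.7 ± 0.482 and CGB7 at 10.4 ± 1.79 (SD, n = 3). Then came LHB at 6.23 ± 0.788, CGB3 at 4.92 ± 0.887, KCNA7 at 4.0 ± 0.19, CGB1 at 1.75 ± 0.559 and CGB2 at 0.657 ± 0.0166 FPKM. CGA was listed at 0. The libraries of CGB8 and CGB5 overlapped, as did those of NTF4 and CGB7, of LHB and CGB3, and of CGB3 and KCNA7. The other neighbours in the order did not overlap. By FPKM, CGB8 ranked between 814 and 1146 among named genes in the TGF-β1 libraries, where 20911 to 21355 genes had a count. In the control libraries it ranked between 13508 and 14570.

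**Figure D2:**
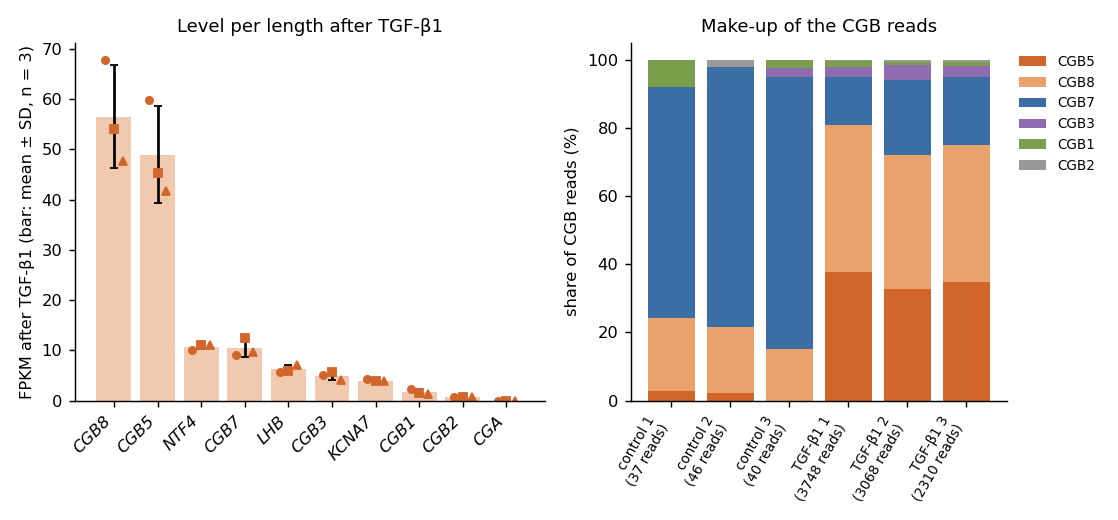
Left, FPKM of each gene in the 3 TGF-β1 libraries (bars are means ± SD, symbols are libraries). Right, the share of each gene in the CGB reads of each of the 6 libraries, in percent, with the number of reads below. CGB7 makes up most of the few control reads, and CGB8 and CGB5 most of the 2310 to 3748 reads after TGF-β1.

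LHB encodes the beta subunit of luteinizing hormone, which acts on the same receptor as chorionic gonadotropin and is a product of the pituitary. Its reads numbered 3, 4 and 3 in control, against 80, 78 and 82 after TGF-β1, with no overlap and little spread within either group. In CPM it was 0.141 ± 0.0193 in control and 3.41 ± 0.449 after TGF-β1 (SD, n = 3), a fitted log2 fold change of 4.53 ± 0.25 (SE). Its length in the tables is 524 bases. LOC101059948, an entry next to LHB on the same strand, went from 2, 4 and 0 reads to 104, 107 and 99, a fitted log2 fold change of 5.60 ± 0.42 (SE). A later RefSeq release places LHB over the position of this entry, so its reads and those of LHB may belong to 1 locus. SNAR-G1 and SNAR-G2, small noncoding RNA genes that lie among the beta genes, were under the filter, with 1 and 0 reads in the pooled controls and 23 and 7 after TGF-β1.

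CGA, which encodes the alpha subunit (gene-CGA, chromosome 6, 87085498 to 87095106), had no read in any of the 6 libraries. A count of 0 allows up to 3 reads per group, or 0.0442 CPM in control and 0.0406 CPM after TGF-β1, beside 127 CPM for the CGB sum. CGA RNA was thus not detectable at this depth in either group, while beta subunit RNA was present after TGF-β1.

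Around the subunits, 4 of 11 listed genes of the glycoprotein hormone axis passed the filter, and 2 of them rose, against 22.2% of all genes called higher. None fell by the edgeR test, also at an unadjusted p under 0.05 and by DESeq2, against 22.1% of all genes. FSHB, the beta gene of follicle-stimulating hormone, had no read. TSHB, the thyrotropin beta subunit, had 9, 8 and 10 reads in control and 22, 22 and 29 after TGF-β1. TSHB rose by a log2 difference of 1.42 ± 0.31 (SE, adjusted p = 0.00315 by edgeR), at 1.05 CPM after treatment. GNRHR, the receptor for gonadotropin-releasing hormone, had 20, 31 and 29 reads in control and 39, 71 and 38 after TGF-β1. Its log2 difference was 0.88 ± 0.28 (SE, adjusted p = 0.0239 by edgeR), and the call was lost with DESeq2 and without TGF-β1 replicate 2, control replicate 1 or control replicate 3. LHCGR, the receptor for chorionic gonadotropin, had 1 read in the 6 libraries together, and FSHR had none. GPHA2, the other alpha subunit gene, had 0, 0 and 2 reads in control and 0, 0 and 1 after TGF-β1. The median log2 fold change of the 4 tested genes was 0.62, beside 0.01 for all genes tested.

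NTF4 encodes neurotrophin 4, a growth factor that binds the receptor TrkB and supports neurons. Its gene (gene-NTF4, chromosome 19, 49058284 to 49065076, minus strand) ends 534 bases before the start of CGB7, which lies downstream on the same strand. NTF4 had 23, 30 and 23 reads in control and 680, 692 and 600 after TGF-β1. The groups did not overlap, and the TGF-β1 libraries lay close together, with a coefficient of variation of 5.23% in CPM against 17.4% for CGB8. The level per length was 0.445 ± 0.0547 FPKM in control and 10.7 ± 0.482 FPKM after TGF-β1 (SD, n = 3). The fitted log2 fold change was 4.68 ± 0.11 (SE), and it was 4.57 to 4.79 over all alternatives. NTF4 and CGB7 are on the same strand, and GENCODE lists a read-through gene over both, so reads in shared exons could not be assigned to either by name alone.

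Besides NTF4, 7 neurotrophin ligands and receptors were read, which are not the whole family. Of these, BDNF and SORT1 passed the filter, with a median log2 fold change of -0.56, and 1 fell, beside 22.1% of all genes. BDNF, brain-derived neurotrophic factor, had 637, 647 and 639 reads in control and 363, 343 and 288 after TGF-β1. It fell by 0.97 on the log2 scale (SE 0.06, edgeR adjusted p = 5.57e-07). NTF3 had no read. NTRK2, which encodes TrkB, had no read in control, and after TGF-β1 it had 0, 1 and 1.

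KCNA7 encodes a voltage-gated potassium channel of the Kv1 family. Its reads numbered 52, 25 and 28 in control, against 470, 416 and 349 after TGF-β1. The groups did not overlap. Control replicate 1 had the most control reads, and without it the fitted log2 fold change of 3.53 ± 0.26 (SE) was 3.96. The level went from 1.51 ± 0.696 to 17.3 ± 0.699 CPM (SD, n = 3). KCNA7 had the smallest fitted change of the 9 members tested. Of 10 other Kv1 channel and subunit genes, 3 passed the filter and 7 did not, and the 7 had at most 3 reads each over the 6 libraries. KCNAB2, an auxiliary subunit, fell by 0.47 on the log2 scale (SE 0.09, edgeR adjusted p = 0.00114), and KCNAB1 had a log2 difference of 0.47 ± 0.17 (SE, adjusted p = 0.0479 by edgeR). The call of KCNAB1 was lost in 11 of 13 alternatives, among them DESeq2 and each library left out. These counts stood beside 22.1% of all genes called lower and 22.2% called higher.

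None of the tested genes within 250 kb on either side of the cluster was called higher in the main fit. The members on chromosome 19 span from the start of LHB to the end of KCNA7. Of 23 other named genes within 250 kb of this span, 13 passed the filter, 0 were called higher and 6 fell, with a median log2 fold change of -0.26. Among all genes tested, 22.2% were called higher and 22.1% lower. By edgeR at an unadjusted p under 0.05, 1 neighbour was higher and 7 were lower. RUVBL2, a helicase subunit gene whose end meets that of LHB, had 3309, 3756 and 3251 reads in control and 4791, 3645 and 3290 after TGF-β1. Its groups overlapped in CPM, and its log2 difference was 0.17 ± 0.08 (SE, adjusted p = 0.104 by edgeR). On the other side SNRNP70, which encodes a protein of the U1 splicing particle, had 4239, 4515 and 3871 reads in control and 5243, 4131 and 3518 after TGF-β1. Its log2 difference was 0.01 ± 0.08 (SE, adjusted p = 0.946 by edgeR).

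The 6 neighbours that fell were LIN7B, PPFIA3, BAX, TRPM4, PLEKHA4 and BCAT2. TRPM4, a calcium-activated cation channel, fell most, by 0.98 on the log2 scale (SE 0.25, edgeR adjusted p = 0.00843), and BAX, which promotes apoptosis, by 0.32 (SE 0.06, edgeR adjusted p = 0.00116). LIN7B fell by 0.64 (SE 0.17) and lost its call with DESeq2. GYS1, muscle glycogen synthase, had a log2 difference of 0.23 ± 0.10 (SE, adjusted p = 0.0937 by edgeR), and it was called higher with a replicate block and without TGF-β1 replicate 3. RUVBL2 was called higher when all genes with a count were kept. In a window of 500 kb, 3 genes were higher and 10 lower. The number of genes tested in that window is not given here, so these counts cannot be set beside the shares of all genes.

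**Figure D3:**
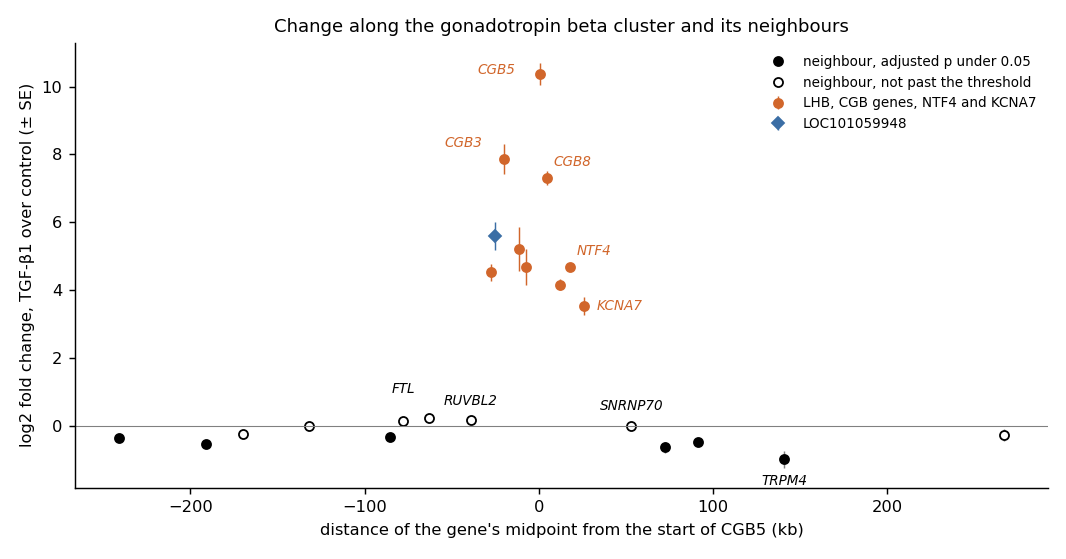
Log2 fold change of TGF-β1 over control (± SE) for tested genes of the beta cluster (orange), LOC101059948 (blue) and neighbours within 250 kb (black, filled where the edgeR adjusted p was under 0.05), against the distance of each gene's midpoint from the start of CGB5 in kb. The genes of the cluster lie between 3.53 and 10.38, and the neighbours lie between -0.98 and 0.23.

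Likeness over the 6 libraries was ranked by the root mean square difference of log2(CPM + 0.1), with all members left out beforehand. Among the 5 genes most like the CGB sum in this ranking were AMTN, GASK1B, PSMC4 and EGR2. AMTN, which encodes the enamel protein amelotin (chromosome 4), was the closest at 0.822. It had 1.99, 2.58 and 2.17 CPM in control and 308.5, 255 and 256 CPM after TGF-β1. It thus resembled the CGB sum in its control level and exceeded it after TGF-β1. GASK1B, a Golgi-associated kinase-like gene on the same chromosome, differed by 1.02 and had 3.74 ± 0.463 CPM in control and 65.6 ± 1.49 CPM after TGF-β1 (SD, n = 3). PSMC4, a proteasome subunit gene, has 2 entries, and the values here are those of 1 entry. That entry had 1.79 ± 0.521 CPM in control (SD, n = 3) and 24.9 to 63.9 CPM among the TGF-β1 libraries. The other entry is not given here, so no change of PSMC4 as a whole is read from these values. For NTF4 the closest gene outside the members was PLEKHG4B at 0.421. It had 1.45 ± 0.124 CPM in control and 21.4 ± 1.97 CPM after TGF-β1 (SD, n = 3). KCNG1, EGR2 and PSMC4 were also among the 5 closest, at 0.710 to 0.842. Since members could not enter the ranking, it does not tell whether a gene of the cluster was closer. CGB7, beside NTF4, had 1.30 ± 0.170 CPM in control and 23.4 ± 4.12 CPM after TGF-β1. NTF4 had 1.075 ± 0.132 and 27.8 ± 1.45 CPM (SD, n = 3).

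Transcription factors known to act on gonadotropin subunit genes in placenta or pituitary mostly showed no change past the threshold. Of 18 listed, 14 passed the filter, 2 rose and 2 fell, with a median log2 fold change of -0.04, beside 22.2% and 22.1% of all genes. ETS2, an ETS factor that acts on both subunit promoters in trophoblast, had 943, 891 and 866 reads in control and 2938, 2646 and 2288 after TGF-β1. It rose by a log2 difference of 1.53 ± 0.07 (SE, adjusted p = 1.62e-08 by edgeR). GATA2 had a log2 difference of 0.25 ± 0.07 (SE, adjusted p = 0.0175 by edgeR), which lost its call with DESeq2, with scaling by total counts, and without control replicate 3 or TGF-β1 replicate 2. TFAP2C, an AP-2 factor of trophoblast, fell by 1.13 on the log2 scale (SE 0.06, edgeR adjusted p = 1.03e-07). POU5F1, known to repress both subunit genes, fell by 0.97 (SE 0.23, edgeR adjusted p = 0.00527), from 1.71 CPM in control to 0.867 CPM after TGF-β1. Its name has 6 further entries on alternate contigs. GCM1 and DLX3, factors of the syncytiotrophoblast, had at most 3 reads in any library, and OVOL1 had none.

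Other placental genes moved in both directions. Of 34 listed genes of placental hormones and the syncytiotrophoblast, 14 passed the filter, 5 rose and 6 fell, beside 22.2% and 22.1% of all genes, with a median log2 fold change of 0.32. The 5 that rose were TFPI2, ADAM12, PAPPA, PGF and SDC1. All of these are secreted or surface proteins that many cells outside the placenta also make. TFPI2, a protease inhibitor, had 3379, 3694 and 3267 reads in control and 18033, 15142 and 13688 after TGF-β1, a log2 difference of 2.17 ± 0.06 (SE, adjusted p = 1.03e-09 by edgeR). ADAM12, a metalloprotease, rose by 1.21 ± 0.06 and SDC1, a cell-surface proteoglycan, by 0.68 ± 0.06 on the log2 scale (SE).

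The pregnancy-specific glycoproteins, like the beta genes, are a placental gene family on chromosome 19. Of the 10 listed, 5 passed the filter, and all 5 fell, beside 22.1% of all genes tested. All 5 are among the 6 placental genes already counted as lower. These were PSG1, PSG3, PSG5, PSG8 and PSG9, which fell by 1.23 to 2.31 on the log2 scale, and PSG3 had 77, 57 and 75 reads in control and 12, 11 and 19 after TGF-β1 (edgeR adjusted p = 7.04e-05). PSG2, under the filter, had 5, 3 and 7 reads in control and 8, 3 and 3 after TGF-β1. The PSG genes are close paralogs, so their split is uncertain. Together the 10, whose sum was not tested, had 386, 372 and 449 reads in control and 128, 141 and 130 after TGF-β1, or 17.2 ± 1.96 and 5.65 ± 0.664 CPM (SD, n = 3). ALPP, placental alkaline phosphatase, fell by 1.76 on the log2 scale (SE 0.39, edgeR adjusted p = 0.00434), and without TGF-β1 replicate 1 it fell by 2.62. Other genes of the hormone-making syncytiotrophoblast were low or at 0. CSH2, a placental lactogen gene, had 18, 21 and 11 reads in control and 22, 19 and 13 after TGF-β1 (adjusted p = 0.830 by edgeR), and its near copy CSH1 had 5 in the 6 libraries together. CYP19A1, the placental aromatase, had 2, and HSD3B1, GH2 and LGALS13 had none. ERVW-1, the fusion protein syncytin, had 4, 10 and 9 reads in control and 3, 4 and 3 after TGF-β1.

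**Figure D4:**
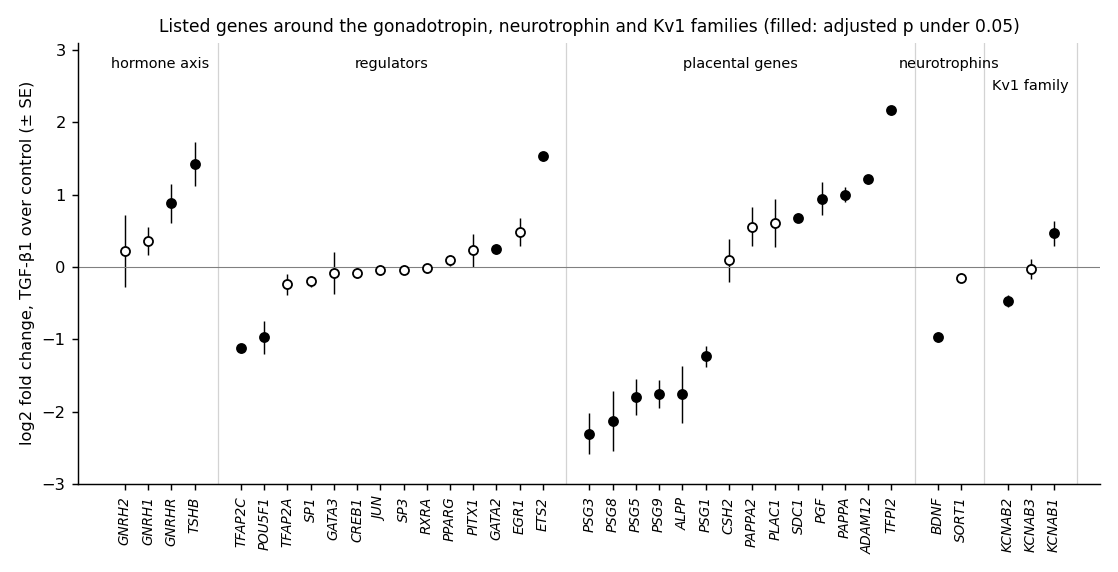
Log2 fold change of TGF-β1 over control (± SE) for the tested genes of 5 lists, namely the glycoprotein hormone axis, regulators of gonadotropin genes, placental genes, neurotrophins and the Kv1 family. Filled symbols have an edgeR adjusted p under 0.05. The regulators, the placental genes and the Kv1 family each hold genes called higher and genes called lower, with PSG3 at -2.31 and TFPI2 at 2.17.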

How the data were processed

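Poly(A) RNA of 3 control and 3 TGF-β1 libraries of HK-2 cells was sequenced by the study. Per the labels the submitters' notes name CASAVA, featureCounts 2.0.1, DESeq2 1.16.1 and hg38. The aligner and the treatment of reads with several matches are not given in the sources used here. The authors deposited 1 table a library, with raw counts, TPM and FPKM of each gene. The FPKM were recomputed from the counts and gene lengths and differed by at most 4.98e-07. TPM were read only to check their sums. Each table had 42095 entries, 7 of them broken over lines and rejoined. Entries with no gene name held 0.396% to 0.464% of counts and were left out. No member had an entry on an alternate contig.

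Genes were filtered with filterByExpr (minimum count 10), scaled with TMM and tested with the edgeR 4.0.16 quasi-likelihood F test (robust, two-sided, R 4.3.3). P values were adjusted by Benjamini-Hochberg over the 14860 genes tested, and called at an adjusted p under 0.05. CPM used TMM-scaled library sizes, and the SE was the log2 fold change divided by the square root of F. The 6 CGB genes were summed to 1 row in a further fit. Read ratios per library total carry exact binomial intervals. Alignments used Biopython 1.88. Alternatives were DESeq2 1.42.0, RLE size factors, total counts, 2 other filters, prior counts of 0.5 and 2, a replicate block, summed entries of a name, other windows, and each library left out. The count of neighbours with entries inside the cluster was added after seeing the data.

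The members and the lists were chosen with earlier results of these data known. Genes were named by rule: all members, the called genes of each list (at most 8) and its defining genes, and called neighbours. The 5 genes most like the CGB sum and NTF4, members left out, were named as well. A few listed or rule-named genes are not reported here, and list counts leave them out.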

Additional observations from a re-analysis of the deposited data

How the results depend on the processing

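No member changed sign in any of 132 member values under the alternatives, and 23 of them moved by more than the replicate spread. The log2 fold changes ranged from 5.54 to 9.74 for CGB3, 3.02 to 7.08 for CGB2, 3.57 to 5.94 for CGB1 and 8.63 to 10.75 for CGB5. The log2 fold change of the CGB sum was 6.07 to 6.27 over the libraries left out, and 6.18 with a replicate block. With a replicate block 3396 genes were higher and 3394 lower, 1 neighbour was higher and 0 genes of the Kv1 family were higher. Scaling by total counts moved the median of all genes from 0.01 to -0.10 on the log2 scale. It gave 2134 genes higher and 4590 lower against 3294 and 3288, with 1 regulator higher and 4 lower, 2 neurotrophin genes lower and 0 of the Kv1 family higher. DESeq2 gave 1 gene of the hormone axis, 1 regulator and 0 of the Kv1 family higher. RLE size factors gave 0 of the Kv1 family higher. With all genes that had a count, 1 neighbour and 0 of the Kv1 family were higher. With a mean of at least 50 counts, fewer genes were tested, and 0 of the hormone axis were higher, 2 placental genes lower and 2 neurotrophin genes lower. A window of 500 kb held 3 neighbours higher and 10 lower, of a number tested that is not given here. With entries inside the cluster, an alternative chosen after seeing the data, 1 was higher. The share of CGB5 per kilobase was 39.6%. Over the libraries left out, the genes called higher were 1 to 2 in the hormone axis, 1 to 2 among regulators, 0 in the Kv1 family and 0 to 1 among neighbours. The causes of these moves were not tested. Depth limits CGB5, CGB3, CGB2 and CGB1 most, which had 1 to 4 reads in the pooled controls. Their folds therefore depend on the prior count and on single control libraries. Same-numbered libraries of the groups had correlations of 0.106, -0.014 and 0.093 between their deviations from the group means. Of 6 libraries, 4 correlated best with their own number. These values do not settle whether the numbers are pairs. The main fit took no pairs, and the fit with a replicate block is given beside it.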
